A study of Mus musculus with 9 samples.

Results

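Messenger RNA was measured in the mouse spinal cord for 10 genes of the inflammasome and pyroptosis pathway, Nlrp3, Nlrc4, Aim2, Nlrp1b, Pycard, Casp1, Casp4, Gsdmd, Il18 and P2rx7. They were taken by gene symbol from the 52550 genes of the count table, and all 10 passed the filter on low counts that left 18699 genes for testing. The animals were adult female C57BL/6N mice, 3 in each of 3 groups, and the cord around the injury site was collected at day 7. Sham mice had a laminectomy alone. SCI mice had a thoracic contusion followed by the vehicle DMSO, and SCI+FIPI mice had the contusion followed by daily FIPI, an inhibitor of phospholipase D that was itself dissolved in DMSO. No injection is described for the Sham mice, so that contusion and vehicle cannot be told apart in the comparison of SCI with Sham.

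Inflammasomes are protein complexes that assemble in the cytosol when a sensor protein meets a danger signal or a microbial product. Through the adaptor ASC the sensor gathers caspase-1, which then cuts the precursors of interleukin-1β and interleukin-18 and the pore protein gasdermin D, and the pore lets the cytokines out and can end in pyroptosis, a lytic death of the cell. In the nervous system these proteins are best known from microglia, from macrophages that enter injured tissue, and in part from neurons and astrocytes. Assembly and cleavage are steps of protein, which counts of messenger RNA do not measure.

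Total counts ranged from 20806000 to 24582377 per mouse. Levels are given as CPM, that is, counts scaled to the size of each library after TMM normalization. A gene counted as called when its log2 fold change reached 0.5 in either direction and its adjusted p was under 0.05 in edgeR's quasi-likelihood test on all 9 mice, adjusted by Benjamini-Hochberg over all genes tested. The first principal component held 77.3% of the variance, on which Sham ran from -94.6 to -76.7, SCI from 47.1 to 64.4 and SCI+FIPI from 27.0 to 33.9. Errors on log2 fold changes are standard errors, taken as the absolute log2 fold change divided by the square root of the test's F statistic. The p-values of edgeR set the difference between groups against the spread between mice, which is estimated in part from all genes.

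After contusion, 9 of the 10 genes were higher than in Sham past both limits, by 2.14-fold for Aim2 up to 6.45-fold for Nlrp3, and Il18 alone lay below Sham. Of all genes tested, 47% were called in this comparison, 24.4% as higher and 22.5% as lower. The median log2 fold change was 2.07 over the 10 and -0.00315 over all genes. Sham and SCI mice did not overlap for any of the 10, which was also the case for 70.5% of all genes. The exact two-sided permutation test gave p = 0.1 for each of the 10, the smallest value that 3 mice against 3 allow.

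Among the sensors, Nlrp3 reacts to potassium efflux and other signs of cell damage. Its level was 2.20, 1.47 and 1.88 CPM in the Sham mice, 8.93, 16.9 and 9.96 CPM in the SCI mice, and 7.60, 7.93 and 7.89 CPM in the SCI+FIPI mice. SCI mouse 2 stood well above the other 2 of its group, and the SCI+FIPI mice lay close together and below every SCI mouse. The log2 fold change of SCI against Sham was 2.69 ± 0.247 (edgeR adjusted p = 7.57e-07). Nlrc4, the partner of the NAIP proteins that bind bacterial flagellin and secretion needles, was the least abundant, with as few as 6 counts in a mouse. It stood at 0.287, 0.777 and 0.293 CPM in Sham, 2.06, 3.02 and 2.70 CPM in SCI, and 2.82, 1.19 and 1.59 CPM in SCI+FIPI, so that the injured groups overlapped with each other and not with Sham. Its log2 fold change after injury was 2.50 ± 0.409 (edgeR adjusted p = 8.92e-05).

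Aim2 binds double-stranded DNA in the cytosol. Its level was 10.2, 9.42 and 5.60 CPM in Sham, 16.2, 19.5 and 18.0 CPM in SCI, and 17.5, 14.2 and 14.4 CPM in SCI+FIPI. It had the smallest rise of the 9, 1.10 ± 0.184 on the log2 scale (edgeR adjusted p = 0.000233), and Sham mouse 3 lay below the others of its group. Nlrp1b, the sensor that is activated when proteases or loss of DPP9 binding free its C-terminal part, stood at 1.77, 0.950 and 1.25 CPM in Sham, 5.24, 5.62 and 6.41 CPM in SCI, and 5.59, 3.65 and 4.40 CPM in SCI+FIPI. Every injured mouse was above every Sham mouse, with a log2 fold change of SCI against Sham of 2.13 ± 0.232 (edgeR adjusted p = 1.2e-06).

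Pycard encodes ASC, the adaptor between sensor and caspase. It was measured at 3.31, 2.81 and 2.22 CPM in Sham, 12.3, 12.8 and 12.9 CPM in SCI, and 11.4, 9.88 and 8.47 CPM in SCI+FIPI. The SCI mice were nearly alike and above both other groups, and the log2 fold change after injury was 2.19 ± 0.157 (edgeR adjusted p = 1.5e-08). An antisense gene, Gm45205, shares 485 bases of exon with Pycard and had 1 to 16 counts per mouse.

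Casp1 encodes the protease of the canonical pathway and Casp4 encodes mouse caspase-11, which binds bacterial lipopolysaccharide directly and cuts gasdermin D without a sensor complex. Both lie in the same orientation on chromosome 9 of GRCm38, Casp1 at 5298517 to 5307265 and Casp4 at 5308828 to 5336783. Casp1 stood at 3.11, 4.41 and 2.59 CPM in Sham, 11.3, 12.9 and 13.3 CPM in SCI, and 9.79, 8.31 and 9.23 CPM in SCI+FIPI. The 3 groups did not overlap, with SCI+FIPI between the other 2, and the log2 fold change after injury was 1.89 ± 0.167 (edgeR adjusted p = 1.29e-07). Casp4 stood at 1.77, 1.64 and 1.30 CPM in Sham, 5.33, 7.57 and 6.24 CPM in SCI, and 5.72, 4.79 and 7.17 CPM in SCI+FIPI. Here the injured groups overlapped, and SCI exceeded Sham by 2.02 ± 0.212 on the log2 scale (edgeR adjusted p = 7.74e-07).

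Gsdmd, which encodes the pore-forming gasdermin D, was measured at 5.84, 7.95 and 5.43 CPM in Sham, 28.4, 29.1 and 27.7 CPM in SCI, and 22.4, 21.3 and 22.9 CPM in SCI+FIPI. It had the lowest adjusted p of the 10 after injury, with a log2 fold change of 2.15 ± 0.118 (edgeR adjusted p = 1.2e-09), and the SCI+FIPI mice lay below all SCI mice. P2rx7 encodes the ATP-gated channel P2X7, through which extracellular ATP lets potassium leave the cell, a trigger of NLRP3. Its level was 24.0, 22.8 and 20.2 CPM in Sham, 49.4, 53.7 and 58.0 CPM in SCI, and 44.1, 40.3 and 46.1 CPM in SCI+FIPI. Again the 3 groups were separate with SCI+FIPI in the middle, and the log2 fold change of SCI against Sham was 1.27 ± 0.085 (edgeR adjusted p = 7.82e-09).

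Il18, the cytokine of the group, went the other way. It stood at 18.2, 18.7 and 19.4 CPM in Sham, 15.2, 14.3 and 14.7 CPM in SCI, and 15.5, 16.5 and 15.8 CPM in SCI+FIPI. The mice within each group were close, the groups did not overlap, and SCI was the lowest. The log2 fold change of SCI against Sham was -0.35 ± 0.0816 with an adjusted p of 0.00162 in edgeR, under the limit on the fold change, so that Il18 was not called.

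**Figure D1:**
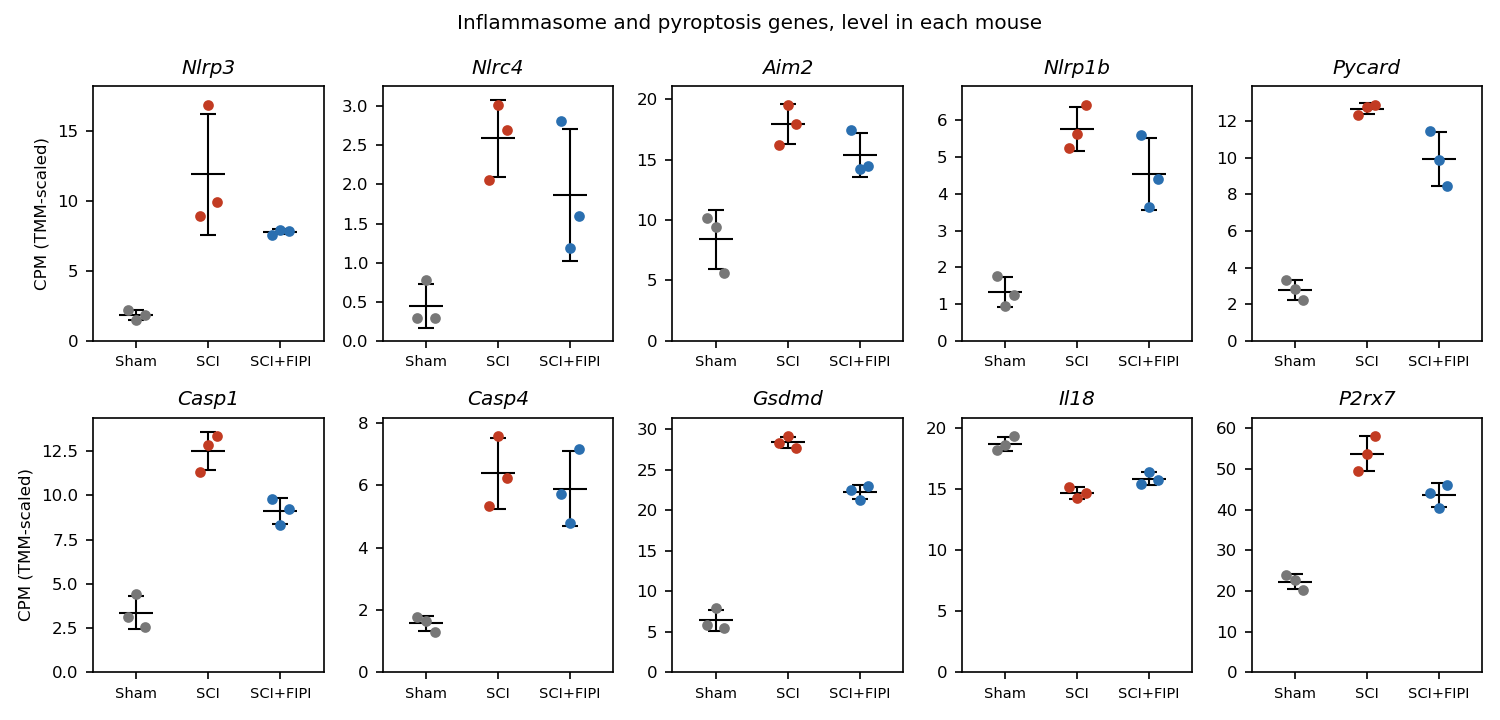
Level of each gene in each of the 9 mice in CPM after TMM scaling, on a linear axis from 0, with points for mice and the bar and whiskers for the mean and SD of 3 mice. In 9 panels both injured groups lie above Sham, with SCI mouse 2 the highest point for Nlrp3 at 16.9 CPM, and in the Il18 panel both injured groups lie below Sham.

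The order of levels can be compared between genes only per length. The exonic length used here joins the exons of all annotated transcripts of a gene. In FPKM, the count divided by the total count and the exonic length, Il18 was the highest of the 10 in Sham (18.3 ± 0.52, SD, n = 3), in SCI (14.1 ± 0.495) and in SCI+FIPI (15.5 ± 0.5), and in none of these groups did it overlap with the next gene. P2rx7, Gsdmd, Aim2 and Casp1 followed in Sham, at mean FPKM of 3.77, 2.72, 2.42 and 2.27, each overlapping with its neighbour in that order. In SCI, Gsdmd was next to Il18 at 11.8 FPKM, above P2rx7 at 8.88 and Casp1 at 8.24, and only the latter pair overlapped. The order depends on the length used. The exonic length was 1031 bases for Il18 and 2377 for Gsdmd, and their longest transcripts had 885 and 1792 bases. The order with the length of the longest transcript was not tested. Nlrc4 had the lowest mean FPKM of the 10 in every group, 0.0953 in Sham, 0.532 in SCI and 0.389 in SCI+FIPI, and overlapped with Nlrp1b in Sham and SCI+FIPI.

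Sequence just upstream of the starts was read from RefSeq on GRCm38.p6, where 9 of the 10 genes had an entry and Gsdmd was not matched. The windows are the 250 bases before each annotated start, 5′ to 3′ on the strand of the gene. Both strands were searched for the letters GGG, 2 bases of any kind and TTTCC, a form of the NF-kB site, for GAGGAAGT, a form of the PU.1 site, and for TGANTCA, a form of the AP-1 site, which occur in 1.41%, 2.44% and 6.75% of 32851 such windows. The NF-kB letters were found in Casp4, the PU.1 letters in Aim2, Nlrp1b and Pycard, and the AP-1 letters in P2rx7. Some genes had more than 1 window, and Nlrp1b and P2rx7 each had another window without a match. The shares over all windows count each window by itself, so they are not shares of genes. The letters of the interferon-stimulated response element (GAAA, 2 bases, GAAA), the GAS element (TTC, 3 bases, GAA) and the ETS and IRF composite element (GGAA, 2 bases, GAAA), present in 2.98%, 7.02% and 2.30% of all windows, were in none of those of the 9 genes. The Casp4 window, chr9:5308599-5308848 on the plus strand, is shown because it held the NF-kB letters in a pair of places, starting 93 and 14 bases before the start. The Aim2 window, chr1:173420354-173420603 on the plus strand, and the Pycard window, chr7:127993868-127994117 on the minus strand, are shown for the PU.1 letters, and the Il18 window, chr9:50554450-50554699 on the plus strand, because Il18 was the gene below Sham. Capitals mark the matches, and Il18 had none. A match describes letters and is not a measured binding site.
Casp4: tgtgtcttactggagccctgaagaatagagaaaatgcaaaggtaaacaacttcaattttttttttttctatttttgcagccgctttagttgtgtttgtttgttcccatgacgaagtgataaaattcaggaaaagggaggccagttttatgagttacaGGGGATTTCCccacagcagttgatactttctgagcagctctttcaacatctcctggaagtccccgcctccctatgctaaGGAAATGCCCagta
Aim2: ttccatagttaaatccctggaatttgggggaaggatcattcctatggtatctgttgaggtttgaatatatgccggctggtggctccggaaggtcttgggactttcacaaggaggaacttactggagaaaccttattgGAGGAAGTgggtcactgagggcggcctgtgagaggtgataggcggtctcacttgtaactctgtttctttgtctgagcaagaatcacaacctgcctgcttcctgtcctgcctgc
Pycard: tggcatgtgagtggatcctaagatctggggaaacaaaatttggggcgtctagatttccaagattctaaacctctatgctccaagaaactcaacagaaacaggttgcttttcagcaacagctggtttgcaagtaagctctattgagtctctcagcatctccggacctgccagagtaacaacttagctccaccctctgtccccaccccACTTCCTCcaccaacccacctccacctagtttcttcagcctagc
Il18: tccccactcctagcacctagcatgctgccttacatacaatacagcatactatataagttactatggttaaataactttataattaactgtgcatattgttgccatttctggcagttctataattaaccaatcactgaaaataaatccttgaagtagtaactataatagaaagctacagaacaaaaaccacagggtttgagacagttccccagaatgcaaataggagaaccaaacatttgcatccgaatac

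The comparison of SCI+FIPI with SCI asks what the inhibitor changed in injured cord. None of the 10 genes passed both limits by edgeR, where 3.06% of all genes did, 2.36% as higher and 0.695% as lower. At an unadjusted p under 0.05 there were 5, a cut for which the share over all genes was not computed. DESeq2 called 1 of the 10 (Nlrp3), where it called 631 of 15136 genes. With limma-voom 0 of the 10 were called, where 634 of 18699 genes were. The log2 fold change was negative for 9 of the 10, where it was negative for 50.3% of all genes, with a median of -0.35 over the 10 and -0.00135 over all. Every mouse with FIPI lay below every SCI mouse for Nlrp3, Pycard, Casp1, Gsdmd and P2rx7, 5 of the 10, a pattern found in 14.5% of all genes, and above every SCI mouse for Il18, found in 15.7%.

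P2rx7 and Gsdmd had an adjusted p under 0.05 with a fold change under the limit, as did 9.63% of genes on adjusted p alone. P2rx7 was at 81.0% of its SCI mean, with a log2 fold change of -0.30 ± 0.0816 (edgeR adjusted p = 0.0313). Gsdmd was at 78.3% of its SCI mean, with a log2 fold change of -0.35 ± 0.106 (edgeR adjusted p = 0.0496). Both kept an adjusted p under 0.05 with DESeq2 (0.0151 for P2rx7 and 0.0187 for Gsdmd) and with limma-voom (0.0327 and 0.024). In edgeR both also kept it on the compared groups alone (0.0386 and 0.0214) and with no filter on low counts (0.00172 and 0.00585). Both lost it with the replicate number as a block (0.053 for P2rx7 and 0.0696 for Gsdmd in edgeR) and when single mice were left out. Gsdmd also lost it in edgeR with upper-quartile factors (0.0665) and with at least 10 counts required in every mouse (0.0505). For P2rx7 the adjusted p was 0.0878 without SCI mouse 2, 0.131 without SCI mouse 3, 0.0626 without SCI+FIPI mouse 1 and 0.165 without SCI+FIPI mouse 2, and for Gsdmd it was between 0.068 and 0.189 without any single mouse of either injured group and 0.0537 without Sham mouse 1.

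Nlrp3 had the largest difference of the 10, -0.61 ± 0.211 on the log2 scale (95% interval -1.07 to -0.15, edgeR adjusted p = 0.0902). It rested on SCI mouse 2. Without that mouse the difference was -0.28 (edgeR adjusted p = 0.356), and without SCI mouse 1 it was -0.78 and past both limits (edgeR adjusted p = 0.0186). SCI mouse 2 was the highest of its group for 5 of the 10 genes, namely Nlrp3, Nlrc4, Aim2, Casp4 and Gsdmd.

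Casp1 came to -0.46 ± 0.152 (edgeR adjusted p = 0.0721) and Pycard to -0.35 ± 0.138 (edgeR adjusted p = 0.126) on the log2 scale, both without overlap of the groups. The adjusted p of Casp1 was 0.0428 with DESeq2 and 0.0441 with limma-voom. In edgeR it was 0.035 on the compared groups alone and 0.0139 with no filter on low counts. With the replicate number as a block it was 0.101 in edgeR, and without single mice of the injured groups 0.0539 to 0.264. Nlrc4, Nlrp1b and Aim2 came to -0.48, -0.34 and -0.22, with overlap and 95% intervals that included 0, the widest being -1.20 to 0.25 for Nlrc4. Among the genes with a negative difference Casp4 had the smallest, -0.11, with an interval of -0.51 to 0.28 (edgeR adjusted p = 0.757). The sign of Casp4 turned without SCI mouse 2 (0.027) or SCI+FIPI mouse 2 (0.016). Il18 was the exception in sign with 0.11 and an interval of -0.07 to 0.29 (edgeR adjusted p = 0.439).

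Against Sham, the SCI+FIPI mice had 9 of the 10 genes higher past both limits, where 38.1% of all genes were called and 21.2% as higher, and 7 of them by at least 1 on the log2 scale. This comparison and that of SCI with SCI+FIPI each share mice with the comparison of SCI with Sham, so their values stand side by side and are not independent. Nlrp3 was 4.22-fold above Sham in SCI+FIPI and 6.45-fold in SCI, Casp1 2.70-fold and 3.71-fold, Gsdmd 3.46-fold and 4.43-fold, and P2rx7 1.95-fold and 2.41-fold. Il18 again lay below Sham, with a log2 fold change of -0.24 ± 0.0814 and an adjusted p of 0.021 in edgeR, under the limit on the fold change.

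**Figure D2:**
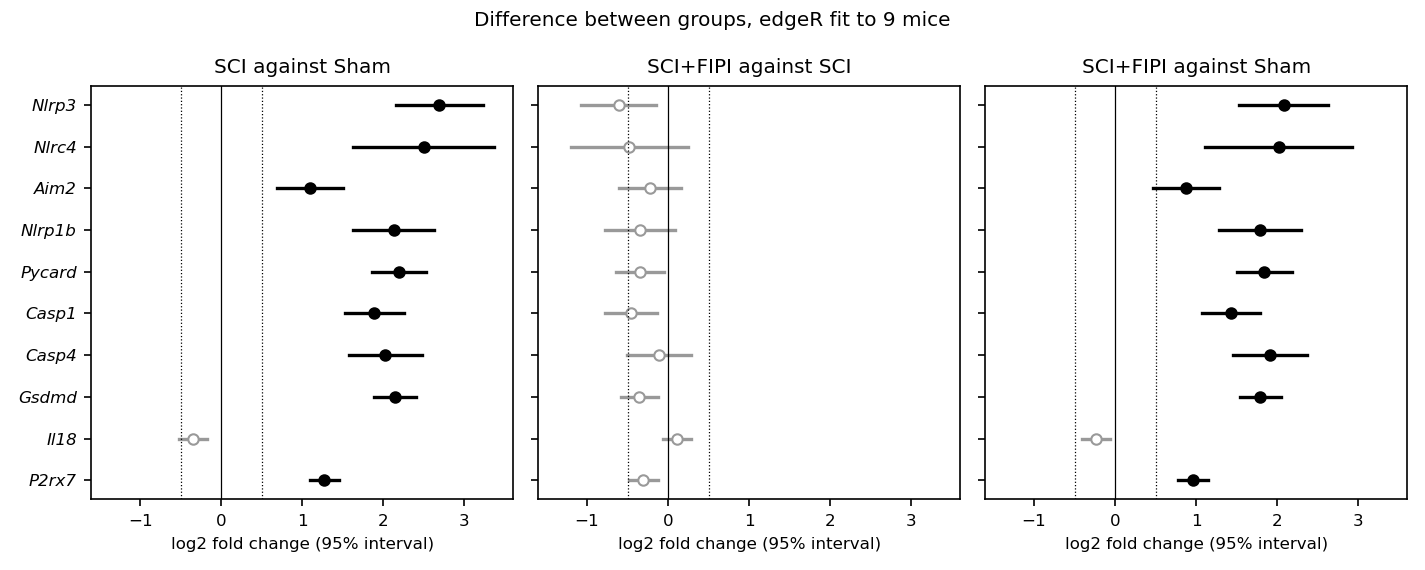
Log2 fold change (point) and 95% interval (line) of each gene in the 3 comparisons from the edgeR fit to all 9 mice, with dotted lines at the limit of 0.5 on either side of 0 and filled black points for genes past both limits. In SCI+FIPI against SCI no point is filled, and the points run from -0.61 for Nlrp3 to 0.11 for Il18.

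The pathway around these genes was followed through a list of 52 others, of which 47 were tested. After injury 37 were higher, 3 were lower and 7 were not past both limits, with a median log2 fold change of 1.62, where 24.4% of all genes were higher and 22.5% lower. All 8 tested of the other sensors were higher, as were the 4 necroptosis genes, 8 of 9 genes of the interleukin-1 and interleukin-18 axis, 6 of 7 other caspases, gasdermins and rupture genes, 8 of 13 licensing and upstream genes, and 3 of 6 guanylate-binding and immunity-related GTPases. Nlrp6, Nlrp10, Nlrp12, Il18r1 and Gsdmc had too few counts to test.

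The largest rise among the well-measured genes was that of Il1rn, the antagonist that blocks the interleukin-1 receptor. It was at 0.623, 2.98 and 0.836 CPM in Sham, 18.9, 36.4 and 19.8 CPM in SCI, and 12.7, 14.5 and 10.4 CPM in SCI+FIPI, a log2 fold change of 4.06 ± 0.54 after injury (edgeR adjusted p = 0.000436). Il1b, the other main cytokine cut by caspase-1, was at 0.671, 0.734 and 0.585 CPM in Sham, 2.64, 9.84 and 3.97 CPM in SCI, and 1.52, 3.98 and 5.83 CPM in SCI+FIPI. For both, SCI mouse 2 was the highest of all 9 mice. The log2 fold change of Il1b after injury was 3.04 ± 0.728 (edgeR adjusted p = 0.00734), and with FIPI it was -0.53 against SCI, with a change of sign to 0.20 without SCI mouse 2.

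Ripk3, the kinase that starts necroptosis, stood at 0.431, 1.04 and 0.501 CPM in Sham, 8.60, 12.7 and 9.07 CPM in SCI, and 9.21, 9.28 and 7.00 CPM in SCI+FIPI. It rose by 3.93 ± 0.275 on the log2 scale after injury (edgeR adjusted p = 3e-08), and the injured groups overlapped. Naip5 and Naip6, NAIP proteins that sense flagellin, rose by 2.64 ± 0.123 and 2.54 ± 0.191, and since 36.9% and 21.5% of the 50-base stretches of their transcripts occur in other genes their counts are uncertain.

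The 3 genes that fell were Brcc3, Serpinb1a and Gsdme. Brcc3, the deubiquitinase that licenses NLRP3, stood at 32.2, 32.5 and 34.3 CPM in Sham and 20.8, 20.4 and 18.1 CPM in SCI, and fell by 0.74 on the log2 scale (SE 0.0806, edgeR adjusted p = 1.22e-06). Serpinb1a, an inhibitor of neutrophil proteases and inflammatory caspases, fell by 0.61 (SE 0.0904, edgeR adjusted p = 2.84e-05), and by 0.50, just under the limit, without Sham mouse 3. Gsdme, the gasdermin cut by caspase-3, stood at 28.6, 31.8 and 29.0 CPM in Sham and 21.1, 19.1 and 19.3 CPM in SCI and fell by 0.59 (SE 0.0858, edgeR adjusted p = 2.43e-05), opposite to Gsdmd.

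With FIPI, 4 of the 47 were lower than in SCI past both limits, 0 were higher, and 40 had a negative log2 fold change, with a median of -0.23. The shares over all genes were 0.695% lower, 2.36% higher and 50.3% negative. Il1r1, the signalling receptor for interleukin-1, was at 41.9, 63.3 and 56.3 CPM in SCI and 34.8, 32.7 and 32.8 CPM in SCI+FIPI, a log2 fold change of -0.69 ± 0.146 (edgeR adjusted p = 0.0187). Il1r2, the decoy receptor, was at 1.43, 3.68 and 1.81 CPM in SCI and 0.536, 1.10 and 0.797 CPM in SCI+FIPI, a log2 fold change of -1.50 ± 0.383 (edgeR adjusted p = 0.0258). The signalling receptor and the decoy were thus both lower, and neither overlapped with SCI. Naip5 came to -0.51 ± 0.108 (edgeR adjusted p = 0.0113), and Casp8, the caspase at the junction of apoptosis, necroptosis and pyroptosis, to -0.53 ± 0.119 (edgeR adjusted p = 0.0149).

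Each of these 4 calls was lost when some single mice were left out, and that of Naip5 also with upper-quartile factors (-0.49, under the fold limit). Without SCI mouse 2, Il1r2 was at -0.99 (edgeR adjusted p = 0.148), Casp8 at -0.51 (edgeR adjusted p = 0.0592) and Naip5 at -0.48, under the fold limit. Without SCI mouse 3, Il1r1 had an adjusted p of 0.0878 in edgeR, Casp8 came to -0.50 (edgeR adjusted p = 0.054) and Naip5 to -0.46. Without SCI+FIPI mouse 1, the adjusted p of Il1r2 in edgeR was 0.0802. Without SCI+FIPI mouse 2, the adjusted p in edgeR was 0.0937 for Il1r1, 0.0594 for Il1r2, 0.0791 for Casp8 and 0.0675 for Naip5. Without SCI+FIPI mouse 3, it was 0.0654 for Il1r1, 0.0789 for Il1r2 and 0.0596 for Casp8, and Naip5 came to -0.47.

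**Figure D3:**
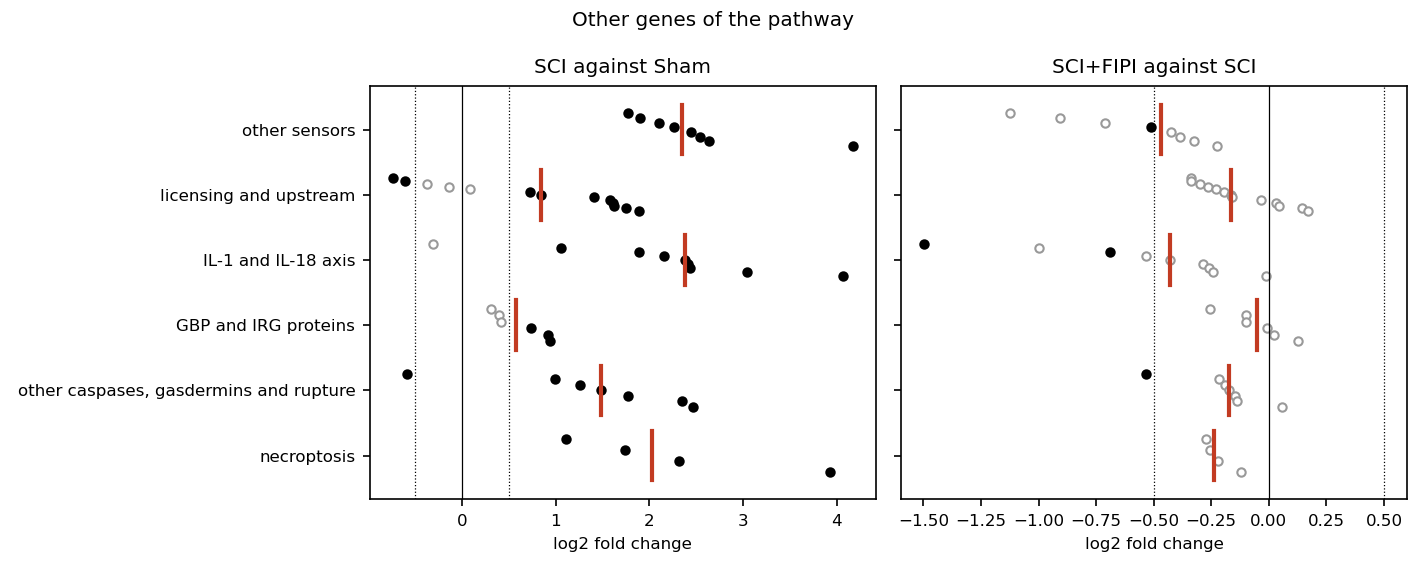
Log2 fold change of each tested gene of 6 pathway lists after injury (left) and with FIPI (right, on a narrower axis), with filled points for genes past both limits, red bars for list medians and dotted lines at 0.5 on either side of 0. The medians lie between 0.58 and 2.38 after injury, and between -0.47 and -0.05 with FIPI, where 4 points are filled.

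In whole tissue, fewer cells of a type and less RNA per cell cannot be told apart, so the markers of cells known to express these genes are given beside them. The 10 macrophage and monocyte markers were all higher after injury past both limits, and their summed level rose from 311 to 449 CPM in Sham to 5640 to 6820 CPM in SCI. In SCI+FIPI the sum was 4050 to 5320 CPM, all 10 markers had a negative log2 fold change against SCI, with a median of -0.43, and 0 were called. The 6 microglia markers summed to 282 to 348 CPM in Sham, 772 to 890 CPM in SCI and 649 to 725 CPM in SCI+FIPI, and 3 of 6 were called higher after injury. Neuron markers moved the other way, with 10 of 10 lower after injury and 6 of 10 higher with FIPI than without. No marker of these lists was at 0 in every mouse. Summed neutrophil markers were 39.0 to 111 CPM in Sham, 56.2 to 69.9 CPM in SCI and 23.9 to 142 CPM in SCI+FIPI, and 0 of 10 were called after injury. Fibroblast markers summed to 329 to 926 CPM in Sham, 8840 to 11900 CPM in SCI and 8170 to 10500 CPM in SCI+FIPI. Endothelial markers summed to 238 to 264 CPM, 408 to 438 CPM and 318 to 395 CPM in the same order, and bone and cartilage markers to 55.6 to 60.7 CPM, 120 to 137 CPM and 70.2 to 87.5 CPM, so that these sums too were highest in SCI. The bone and cartilage sum, with means of 57.9, 128 and 80.4 CPM, mainly followed 1 gene, Col10a1, a collagen of growth cartilage. Col10a1 averaged 0.0783 CPM in Sham, 72.0 CPM in SCI and 10.6 CPM in SCI+FIPI. The list as a whole did not move this way. Of its 8 genes, 4 had a positive and 4 a negative log2 fold change after injury, with a median of 0.101. With FIPI against SCI, 6 were positive and 2 negative, with a median of 0.264. There 1 gene was called higher and 1 lower.

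Each gene was then divided by the summed macrophage and monocyte markers of the same mouse. After injury all 10 genes were lower on this ratio than in Sham, with no overlap and log2 differences from -1.38 for Nlrp3 to -4.32 for Il18 (exact two-sided permutation p = 0.1 for each, the smallest possible). Of all genes tested, 98.6% were lower in the same way, so the count does not set the 10 apart. Lyz2 made up 29.6% to 37.6% of the marker sum in Sham mice and 71.7% to 75.9% in SCI mice. Gsdmd came to 1.40%, 1.77% and 1.75% of the marker sum in Sham, 0.484%, 0.516% and 0.406% in SCI, and 0.422%, 0.525% and 0.516% in SCI+FIPI. The injured groups overlapped. With the geometric mean of the 10 markers in place of their sum, a choice made after seeing the data that keeps Lyz2 from dominating, the difference of SCI from Sham was -0.81 in place of -1.82 for Gsdmd and -0.37 in place of -1.38 for Nlrp3. On that measure Nlrp3 and Nlrc4 overlapped between the groups and the other 8 genes were lower, as were 95.7% of all genes. In SCI+FIPI against SCI, 9 of the 10 genes overlapped on the ratio to the marker sum, with differences from -0.14 to 0.29 on the log2 scale. On the ratio to the sum Il18 was higher in every SCI+FIPI mouse, by 0.52, as were 49.4% of all genes.

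Against the summed microglia markers the picture after injury was mixed. Nlrp3, Nlrp1b, Pycard, Casp4 and Gsdmd were higher in every SCI mouse than in every Sham mouse, by 1.16, 0.66, 0.74, 0.53 and 0.72 on the log2 scale, a pattern found in 6.04% of all genes. Il18 and P2rx7 were lower, with log2 differences of -1.77 and -0.16, as were 82.9% of all genes, and Nlrc4, Aim2 and Casp1 overlapped. With FIPI, Casp1 was lower than in SCI (log2 difference -0.15) and Il18 higher (0.42), both without overlap, and the other 8 genes overlapped. Among all genes 1.19% were lower and 50% higher in this way. P2rx7 was at 6.41%, 6.39% and 6.51% of the microglia sum in SCI and at 6.08%, 6.20% and 7.10% in SCI+FIPI. What part the amount of any of these cells or tissues has in the differences of the 10 genes was not tested.

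**Figure D4:**
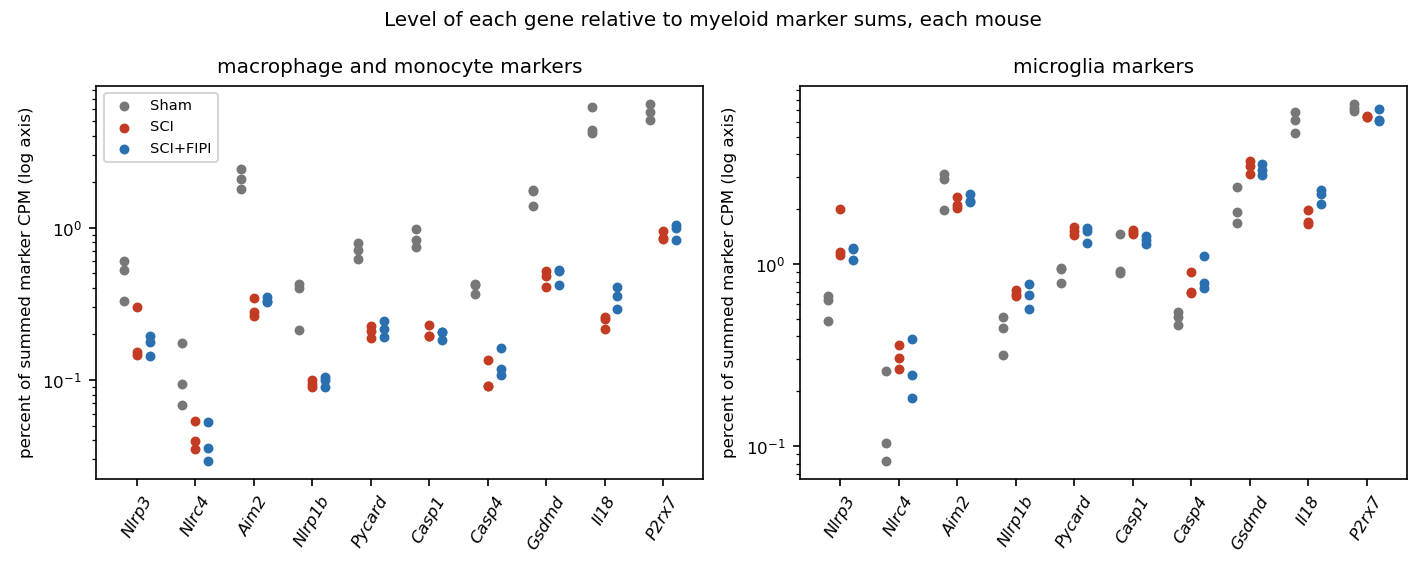
Each gene in each mouse as a percent of the summed CPM of 10 macrophage and monocyte markers (left) or 6 microglia markers (right), on a log axis, with colors for the 3 groups. On the left every gene is lower in SCI than in Sham, and the points of SCI and SCI+FIPI overlap for 9 of 10 genes.

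The likeness of the genes among themselves was measured as the root-mean-square difference of log2 CPM over the 9 mice, each gene centred on its own mean. Casp1 and Gsdmd, protease and substrate, were the closest pair at 0.175 log2 units, followed by Aim2 and P2rx7 at 0.195 and by Pycard and Gsdmd at 0.198. Among 14686 other genes averaging 1 or more in log2 CPM, those closest to Casp1 were H2-D1 at 0.0618, AI467606 at 0.0796, Cd9 at 0.0831, Fancd2 at 0.0935 and Mylk at 0.0972. H2-D1 encodes a class I antigen-presenting molecule and Cd9 a tetraspanin. These 5 had log2 fold changes of 1.73 to 1.96 after injury and of -0.50 to -0.35 with FIPI against SCI.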

How the data were processed

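Polyadenylated RNA of the spinal cord was sequenced in 9 mice. The authors trimmed the reads, counted them on genes and deposited raw counts. The submitters' processing notes name GRCm38 and R 4.2.3, while aligner, counting program and use of strand are not given in the sources used here. Symbols, positions and exonic length came from GENCODE M21, which held 52403 of the 52550 identifiers. The tests were run with edgeR 4.0.16 under R 4.3.3 (TMM, filterByExpr, robust quasi-likelihood fit, 1 mean per group). The limits on fold change and adjusted p follow the study's methods, which name no test. Single ratios were compared by exact permutation tests. Intervals are 95%.

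The 10 genes and all lists were chosen with earlier results of these data known, and the promoter motifs after the windows were read. Named pathway genes were those past both limits in SCI+FIPI against SCI, and the 5 largest rises and falls after injury among genes averaging 1 or more in log2 CPM without overlap, plus Il1b and Gsdme. Each mouse was its own replicate (chi-square per gene 6.59 to 12.7 within groups). Alternatives were RLE and upper-quartile factors, other filters, limits and groups fitted, a replicate block, DESeq2 1.42.0, limma-voom (limma 3.58.1), and each mouse left out. Python 3.11.15 and matplotlib 3.10.9 were used for sequences and figures. Irgb10 was not matched.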

Additional observations from a re-analysis of the deposited data

How the results depend on the processing

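After injury 9 of the 10 genes were past both limits under the alternatives tried, apart from 10 with no limit on the fold change and 8 with at least 10 counts required in every mouse, a filter that Nlrc4 does not pass. In SCI+FIPI against SCI the count was 0, and it became 2 with no limit on the fold change (Gsdmd and P2rx7), 1 with no filter on low counts and 1 with DESeq2, both times Nlrp3, with a log2 fold change of -0.61 (edgeR adjusted p = 0.00073) and -0.62 (DESeq2 adjusted p = 0.0496). Over all genes the calls were 9.63% with no limit on the fold change, 776 of 33112 with no filter on low counts and 631 of 15136 with DESeq2. Leaving out single mice gave 0 to 1 of the 10. The sign of 4 values turned when a mouse was left out, namely Casp4 without SCI mouse 2 and without SCI+FIPI mouse 2 (range -0.28 to 0.027 over the mice left out), Il1b without SCI mouse 2 (-0.99 to 0.20) and Gsdme without SCI+FIPI mouse 2 (-0.012 to 0.11), and the cause was not tested. Il18 with FIPI stayed below Sham, with an adjusted p between 0.00808 and 0.107 over the settings.

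Relative to the marker sums, the 10 genes lower in SCI than in Sham became 2 with the microglia sum and 8 with the geometric mean of the macrophage and monocyte markers, which was chosen after seeing the data. The 0 lower in SCI+FIPI than in SCI became 1 with the microglia sum and 1 with the geometric mean, both times Casp1, where 1.19% and 0.54% of all genes were lower. The 10 lower in SCI+FIPI than in Sham became 1 and 7, and the shares over all genes were not computed for this comparison. In SCI against Sham, 98.6% of all genes were lower on the macrophage and monocyte sum, 82.9% on the microglia sum and 95.7% on the geometric mean.

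Mice with the same replicate number in different groups are different animals, and their deviations from the group means correlated between -0.0726 and 0.108. These values cannot show whether mice of the same number were handled together, and the labels do not say. With the replicate number as a block, 9 of the 10 genes were past both limits after injury, 0 with FIPI against SCI and 9 with FIPI against Sham, and 555 of all genes were called with FIPI in place of 572. Of the 10 genes, those with an adjusted p under 0.05 in SCI+FIPI against SCI went from 2 to 0 under the block, with edgeR adjusted p of 0.053 for P2rx7 and 0.0696 for Gsdmd. That number was 4 with DESeq2, 3 with limma-voom, 3 with edgeR on the compared groups alone and 4 with no filter on low counts. The share of all genes at this cut was 9.63% in the main fit. It was not computed under these settings or the block, so the change in the number cannot be set against all genes. Without single mice the count of all genes called in SCI+FIPI against SCI ran from 189 to 1038. Nlrc4, with at most 73 counts in a mouse, has the widest intervals of the 10.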
